A study of Mus musculus with 14 samples.

Results

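Nuclear receptors through which the histone deacetylase HDAC3 can be brought to DNA, and the receptor-interacting corepressor Nrip1, were followed in mouse quadriceps muscle with and without HDAC3. The genes were taken by symbol from the 24354 genes of the deposited expression table, and all 9 were found: the thyroid hormone receptors Thra and Thrb, the retinoid X receptors Rxra, Rxrb and Rxrg, the glucocorticoid receptor Nr3c1, the vitamin D receptor Vdr, the liver X receptor Nr1h2 and Nrip1. Both groups were quadriceps of male mice aged 4 months, labelled strain C57B/6, kept on normal chow and an ordinary light/dark cycle, untreated and at rest. Muscle was taken at ZT10, that is 10 h after lights on, and gave 3 RNA-seq libraries labelled HDAC3 Wild-type and 3 labelled HDAC3 Knock-out. The labels name neither the deleted allele nor a Cre driver, and do not say whether the replicates of a group came from separate animals, so the p-values below measure only the spread between these libraries, which may be technical. No library here measures the binding of HDAC3 to a receptor, and the HDAC3 ChIP-seq peaks of the series were not used here.

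Nuclear receptors are transcription factors that bind short DNA motifs and change their partners when a hormone or other ligand enters them. Thyroid hormone, retinoid X and liver X receptors can sit on DNA without ligand, where they hold corepressors such as NCoR1 and through them HDAC3. Ligand releases the corepressor and favours coactivators such as the SRC proteins, p300 and CBP. The retinoid X receptors are the shared dimer partners of the thyroid hormone, vitamin D and liver X receptors. The glucocorticoid receptor waits in the cytoplasm on heat shock proteins until cortisol or corticosterone binds. NRIP1, also called RIP140, is drawn mainly to receptors that carry ligand and represses oxidative genes in muscle and fat.

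Hdac3 was checked first. It stood at 33.3, 31.0 and 23.7 FPKM (a level corrected for gene length and for the size of the library) in the wild-type libraries and at 5.51, 6.29 and 8.16 FPKM in the knockout libraries, as the labels would have it. FPKM summed to between 454359 and 495099 per library. Read numbers are not in the files. From the steps between low values, the depth of the libraries relative to wild-type replicate 1 ranged from 0.660 to 1.02, with knockout replicates 1 and 3 the shallowest. Fibre genes defined the tissue: 9 such genes, among them Ckm, Acta1 and Tnnt3, summed to between 56097 and 65543 FPKM in wild type and to between 53527 and 66130 FPKM in the knockout, while Myh7, the slow myosin, stayed at or under 1.47 FPKM in every library. Neutrophil markers stood apart in wild-type replicate 2, where S100a8 reached 239.5 FPKM. Fibroblast markers, 6 genes all tested, summed to 421 to 596 FPKM in wild type and 288 to 444 FPKM in the knockout. Limma called none of the 6, with 1 at an unadjusted p under 0.05, and the authors' deposited table called 2 lower, the collagen genes Col1a1 and Col1a2. Satellite cell markers, 4 genes of the muscle stem cell, summed to 8.20 to 9.32 FPKM in wild type and 4.06 to 5.46 FPKM in the knockout. Among these markers Pax7, at most 0.383 FPKM, and Myf5, at most 1.27 FPKM, were low, with means under 1 FPKM over all libraries. Every knockout library was under every wild-type library in 11.9% of all genes tested and in each of the 4. Limma tested 2 of them and called none, with both at an unadjusted p under 0.05, and the authors' deposited table called 1 lower, Cdh15. None of the marker genes was at 0 in every library; the part of these cells in the results below was not tested. In whole muscle, fewer cells of a type and less RNA per cell cannot be told apart.

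None of the receptors, nor Nrip1, passed the test for a difference between knockout and wild type. Genes with a mean of at least 1 FPKM over the 6 libraries were tested with limma on log2(FPKM + 1), and a gene was called at a Benjamini-Hochberg adjusted p under 0.05 over all 10501 genes tested. Of the 9 genes, 8 entered the test and 0 were called, against 3.65% of all genes tested (2.3% higher and 1.34% lower in the knockout). The difference was above 0 in 4 of the 8, against 50.3% of all genes tested. At an unadjusted p under 0.05 limma had 2 of the 8, against 19.7% of all genes tested. The q-value of the authors' deposited table called 0 of the 8 as well, against 10.8% of the genes with a deposited test, and 2 of the 8 had a deposited p under 0.05, against 22.3%. The median size of the difference over the 8 genes, without regard to sign, was 0.11 on the log2(FPKM + 1) scale and 0.18 over all genes tested. The plot of each library's values shows 2 genes, Thra and Thrb, whose groups did not overlap.

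**Figure D1:**
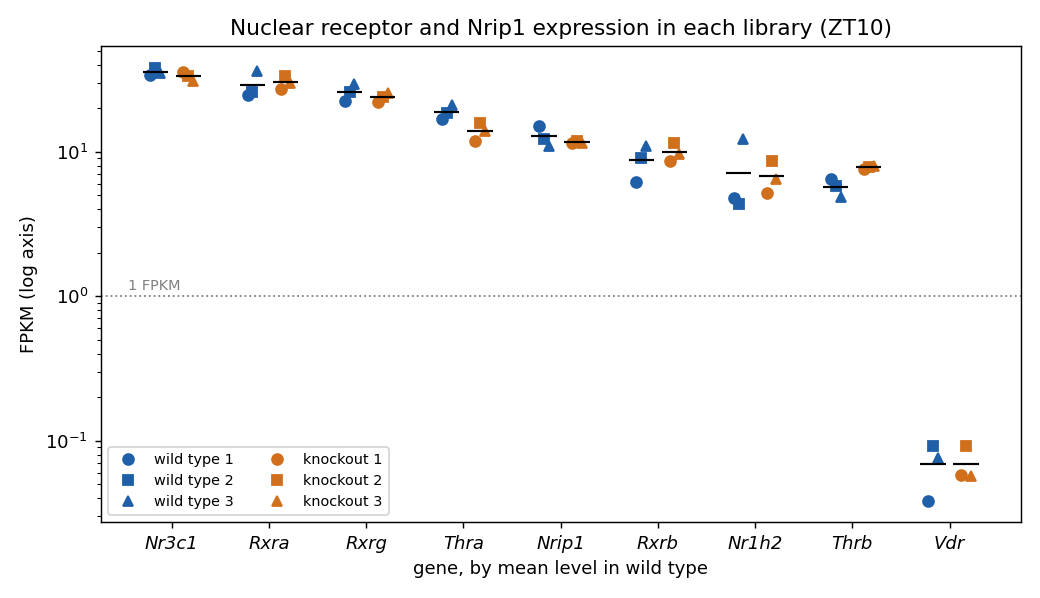
Expression of the 8 receptors and Nrip1 in FPKM (log axis) in each of the 3 wild-type and 3 knockout libraries at ZT10, with a black bar at each group mean. Thra lies lower and Thrb higher in every knockout library than in every wild-type library, the other genes overlap between groups, and Vdr lies under 0.1 FPKM in all 6 libraries.

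The thyroid hormone receptors lay on opposite sides. Thra, which makes the main thyroid hormone receptor of muscle, was at 16.97, 18.7 and 20.9 FPKM in the wild-type libraries and at 11.9, 15.7 and 14.0 FPKM in the knockout libraries. Every knockout library was thus under every wild-type library. The group means were 18.9 ± 1.98 and 13.9 ± 1.94 FPKM (SD, n = 3 each), a 1.36-fold lower level in the knockout. The difference of -0.42 ± 0.13 (SE) on the log2(FPKM + 1) scale did not pass (limma, adjusted p = 0.141). The q-value of the authors' deposited table was 0.210 for Thra. Thra is read into splice forms, of which 1 binds hormone and another does not, and a value per gene holds all of them together.

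Thrb, the other thyroid hormone receptor gene and the one that governs much of the hormone's action in liver, was at 6.51, 5.81 and 4.89 FPKM in wild type and at 7.64, 7.88 and 7.99 FPKM in the knockout. Every knockout library was above every wild-type library, and the knockout libraries lay close together. The means were 5.74 ± 0.812 and 7.84 ± 0.178 FPKM, a 1.37-fold higher level in the knockout, with a difference of 0.40 ± 0.12 that did not pass either (limma, adjusted p = 0.132). The q-value of the authors' deposited table came nearer, at 0.0567. Gaps of this kind were common in these libraries: 14.2% of all genes tested had every knockout library above every wild-type library and 11.9% had every one below, against 1 of 8 each among the receptors and Nrip1. Over the 15 alternative settings the adjusted p ranged from 0.104 to 0.327 for Thra and from 0.0567 to 0.313 for Thrb. Both directions held, but with groups that do not overlap most settings could not turn them. Leaving out a library, or another pseudocount, filter or trend, keeps the sign of such a gene.

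**Figure D2:**
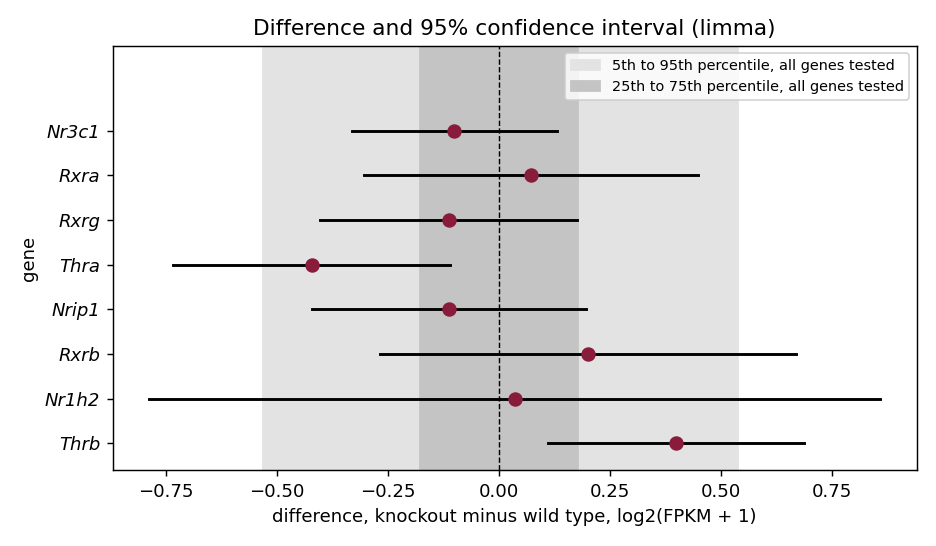
Difference between knockout and wild type on the log2(FPKM + 1) scale for the 8 genes tested (points) with 95% confidence intervals from limma (lines), over bands from the 5th to the 95th and the 25th to the 75th percentile of all genes tested. The intervals of Thra and Thrb leave out 0 before adjustment, and those of the other 6 genes hold it.

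Within a library the balance of the thyroid hormone receptors differed by more than either gene. The ratio of Thra to Thrb, both per length, was 2.61, 3.22 and 4.28 in the wild-type libraries and 1.55, 1.998 and 1.75 in the knockout libraries. The groups did not overlap, and the mean ratio went from 3.37 ± 0.845 to 1.77 ± 0.222. Thra made up 76.5 ± 4.39% of the summed FPKM of both genes in wild type and 63.7 ± 2.90% in the knockout. The sum itself overlapped between groups, at 24.6 ± 1.17 and 21.7 ± 2.07 FPKM. The wild-type mean ratio was between 1.65 and 2.12 times the knockout mean ratio when each library was left out in turn. The ratio joins the differences of both genes and is no evidence apart from them.

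Thra shares its end with Nr1d1, the gene of the clock repressor REV-ERB alpha, which is read from the other strand and overlaps it in RefSeq. Whether reads were counted by strand is not stated, so reads of the shared stretch cannot be told apart. Nr1d1 was at 10.9, 16.3 and 15.7 FPKM in wild type and at 9.05, 11.7 and 10.3 FPKM in the knockout, with a difference of -0.42 that was not called (limma, adjusted p = 0.232). The ratio of Thra to Nr1d1 was 1.35 ± 0.204 in wild type and 1.34 ± 0.0253 in the knockout. Both genes were thus lower in the knockout mean by a like amount, with overlapping groups for Nr1d1, and what the overlap adds to either value was not tested.

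Receptors of the thyroid hormone, retinoid X and liver X kinds read copies of the motif AGGTCA, and the RefSeq promoter windows of the genes themselves were searched for it. Windows of 7 of the 9 genes were searched, 12 in all. Each ran from 250 bases before to 50 bases after a transcript start in the build GRCm38.p6. Thra and Nr3c1 were not searched. AGGTCA stood on either strand in 3 of the 12 windows, against 16.3% of 32851 windows of all genes. None of the 12 held it as the direct repeat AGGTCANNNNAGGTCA, the spacing that thyroid hormone receptor dimers favour, which 0.0152% of all windows hold. The 3 windows are shown since they carry the motif these receptors bind. Capitals mark AGGTCA, or TGACCT where it lies on the other strand, and no library here shows a receptor on them. In Thrb (chr14:17660710-17661009, plus strand) the motif begins 184 bases before the start, in a window with 37 CG dinucleotides. In the second window of Rxra (chr2:27709042-27709341, plus strand) it begins 48 bases before the start and, on the other strand, 87 bases before it. In the second window of Rxrg (chr1:167618015-167618314, plus strand) it begins 88 bases before the start.
Thrb: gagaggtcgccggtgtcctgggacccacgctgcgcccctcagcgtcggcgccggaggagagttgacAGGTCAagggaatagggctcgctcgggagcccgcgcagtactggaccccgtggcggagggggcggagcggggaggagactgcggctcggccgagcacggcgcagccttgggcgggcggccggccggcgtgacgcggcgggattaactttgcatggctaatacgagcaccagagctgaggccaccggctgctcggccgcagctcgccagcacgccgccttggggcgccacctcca
Rxra: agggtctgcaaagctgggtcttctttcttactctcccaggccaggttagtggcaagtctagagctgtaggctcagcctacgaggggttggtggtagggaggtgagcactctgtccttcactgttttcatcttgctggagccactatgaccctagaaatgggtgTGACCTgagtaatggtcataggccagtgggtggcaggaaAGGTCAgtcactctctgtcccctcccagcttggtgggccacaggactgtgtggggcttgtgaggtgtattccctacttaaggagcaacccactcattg
Rxrg: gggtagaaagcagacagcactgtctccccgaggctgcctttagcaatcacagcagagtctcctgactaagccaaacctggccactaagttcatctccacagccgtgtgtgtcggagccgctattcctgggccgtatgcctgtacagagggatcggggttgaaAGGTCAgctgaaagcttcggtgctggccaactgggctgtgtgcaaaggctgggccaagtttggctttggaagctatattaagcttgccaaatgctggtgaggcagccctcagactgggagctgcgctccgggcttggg

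The retinoid X receptors, which supply the dimer partner for most receptors described here, kept overlapping groups. Rxra was at 24.7, 26.1 and 36.2 FPKM in wild type and at 27.2, 33.5 and 30.0 FPKM in the knockout. Rxrg, the form typical of skeletal muscle and brain, was at 22.4, 25.9 and 29.5 FPKM and at 22.1, 23.9 and 25.4 FPKM. Rxrb was the lowest, at 6.18, 9.06 and 10.9 FPKM and at 8.68, 11.54 and 9.71 FPKM. In all 3 genes wild-type replicate 1 was the lowest and wild-type replicate 3 the highest of its group. The differences were 0.07, -0.11 and 0.20 for Rxra, Rxrg and Rxrb, with adjusted p of 0.855, 0.671 and 0.639 (limma). The intervals still allow sizeable changes: on the FPKM + 1 scale the 95% interval ran from -19.0% to 36.5% for Rxra, from -24.3% to 13.01% for Rxrg and from -16.9% to 58.8% for Rxrb.

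The makeup of the family differed little between groups. Rxra held 45.5 ± 2.38% of the summed FPKM of the 3 genes in wild type and 47.2 ± 1.32% in the knockout, and Rxrg 41.0 ± 2.15% and 37.3 ± 2.33%. The share of Rxrb was 11.6%, 14.8% and 14.2% in the wild-type libraries and 15.0%, 16.7% and 14.9% in the knockout libraries, which did not overlap but came within 0.1 percentage points of each other. The summed level was 63.7 ± 11.9 and 64.0 ± 5.56 FPKM. Set against it, the thyroid hormone receptors together were 0.393 ± 0.0522 of the retinoid X receptor sum in wild type and 0.339 ± 0.00343 in the knockout, and these values overlapped.

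**Figure D3:**
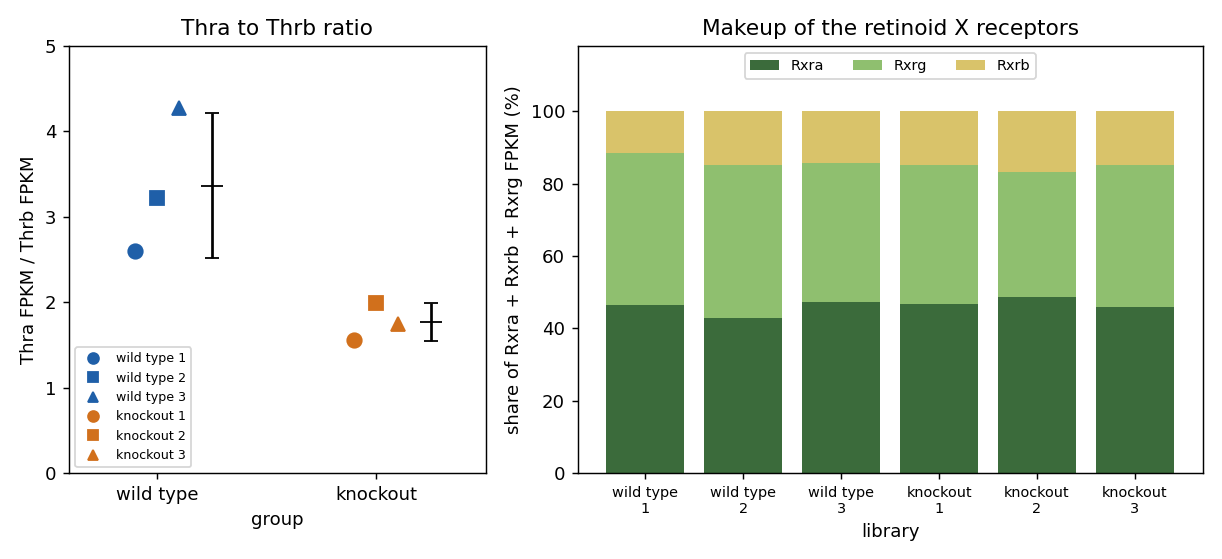
Left, the ratio of Thra to Thrb FPKM in each library, with mean ± SD beside the points; right, the shares of Rxra, Rxrg and Rxrb in their summed FPKM in each library (%). The 3 knockout ratios, 1.55 to 1.998, lie under the 3 wild-type ratios, 2.61 to 4.28, while the shares of the retinoid X receptors differ little between libraries.

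Nr3c1, the glucocorticoid receptor, was the most abundant of the 9 genes by its wild-type mean and among the steadiest. It was at 34.2, 38.3 and 35.0 FPKM in wild type and at 35.6, 33.5 and 31.0 FPKM in the knockout. The groups overlapped, the difference was -0.10 ± 0.10 (limma, adjusted p = 0.629), and the 95% interval on the FPKM + 1 scale, from -20.5% to 9.39%, was the narrowest of the 8 tested. Nr3c2, the mineralocorticoid receptor that binds the same hormones, was lower in every knockout library (4.84 ± 0.399 and 3.37 ± 0.507 FPKM) without passing (limma, adjusted p = 0.139). Nr3c1 exceeded Nr3c2 7.43 ± 0.705 times in wild type and 10.01 ± 1.31 times in the knockout.

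Among genes known to respond to glucocorticoids most differences were above 0, and the knockout libraries were not alike. All 22 listed genes were tested, 0 were called by limma in either direction, and 7 had an unadjusted p under 0.05. The difference was above 0 in 19 of them, with a median of 0.45, against 0.00 over all genes tested. The q-value of the authors' deposited table called 10 of the 22 higher and 1 lower, where 5.9% and 4.94% of genes with a deposited test were called. The 1 called lower was Pdk4, with overlapping groups and a difference of -0.56 (limma, adjusted p = 0.479). Relative to the wild-type mean of each gene, the median over the list was -0.20 in knockout replicate 1 but 0.82 and 0.73 in knockout replicates 2 and 3. The wild-type libraries lay between -0.07 and 0.07. Knockout replicate 1 was the lowest knockout library in 20 of the 22 genes, where it was so in 36.3% of all genes tested. Without it the median of the list was 0.83, and limma called 2 of the 22 higher. Without knockout replicate 2 the median was 0.27 and 16 of the 22 differences were above 0, with 0 called.

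The 22 genes did not all divide the knockout libraries in this way. In 4 of them, Glul, Trim63, Mt2 and Ddit4, every knockout library was above every wild-type library, against 14.2% of all genes tested. Ddit4 was so only barely and still had knockout replicate 1 apart. That library was at 2.62 FPKM against 2.59 FPKM in wild-type replicate 1, and knockout replicates 2 and 3 were at 8.57 and 8.17 FPKM. Glul, which encodes glutamine synthetase, was at 181.0, 96.4 and 91.7 FPKM in wild type and at 225.1, 458.0 and 344.7 FPKM in the knockout (limma, adjusted p = 0.0574). Trim63, the ubiquitin ligase MuRF1 of muscle wasting, was at 98.8, 115.8 and 134.4 FPKM and at 159.4, 202.2 and 241.2 FPKM (limma, adjusted p = 0.0633). Other genes had knockout replicate 1 apart. Klf15, a glucocorticoid-induced factor that drives amino acid breakdown, was at 9.77, 7.72 and 13.6 FPKM in wild type and at 8.33, 24.6 and 18.6 FPKM in the knockout. Cebpd, an early target, was at 1.48, 1.87 and 1.83 FPKM and at 0.588, 6.35 and 5.76 FPKM. Dusp1, a phosphatase that shuts off stress kinases, was at 32.4, 20.9 and 33.0 FPKM and at 28.8, 60.7 and 86.2 FPKM. In Klf15, Cebpd and Dusp1 knockout replicate 1 lay within or under the wild-type range and the other knockout libraries above it. Pik3r1, which encodes the regulatory subunit of PI3 kinase, was at 17.7, 11.3 and 9.18 FPKM and at 17.4, 35.2 and 20.7 FPKM. All genes named here were picked after their values were seen. The adjusted p by limma were 0.435 for Klf15, 0.559 for Cebpd, 0.251 for Dusp1 and 0.165 for Pik3r1. Nr3c1 itself was highest in knockout replicate 1 among the knockout libraries. The relative depth of knockout replicates 1, 2 and 3 was 0.660, 0.832 and 0.674.

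Supply and chaperones of the glucocorticoid receptor held genes on both sides. Of 10 listed genes 9 were tested and 0 were called by limma (2 at an unadjusted p under 0.05), with a median of 0.01. Hsp90ab1, the constitutive HSP90 that holds the receptor, went from 327.7, 341.3 and 312.3 FPKM to 268.4, 217.4 and 239.4 FPKM. Its groups did not overlap, and it missed the threshold (limma, adjusted p = 0.0758), while the q-value of the authors' deposited table was 0.0436. Fkbp5, a co-chaperone that the hormone induces and that counts in the responsive list too, was called higher in the authors' deposited table (q = 0.0373), with overlapping groups and a difference of 0.41 (limma, adjusted p = 0.653). Hsd11b1, which regenerates active hormone in the cell, overlapped between groups with a difference of 0.10.

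Nr1h2, the liver X receptor that senses oxysterols in most tissues, could not be placed with any precision. It was at 4.78, 4.37 and 12.3 FPKM in wild type and at 5.22, 8.60 and 6.43 FPKM in the knockout. Wild-type replicate 3 stood far above the other wild-type libraries, and the coefficient of variation in wild type, 62.4%, was above that of 98.7% of genes of like level. The difference of 0.04 ± 0.35 (limma, adjusted p = 0.974) had a 95% interval from -42.0% to 81.2% on the FPKM + 1 scale, the widest of the 8. Without wild-type replicate 3 the difference was 0.45. Nr1h3, the other liver X receptor, was at a like level (6.57 ± 1.94 and 5.60 ± 1.07 FPKM), and Nr1h2 made up 49.9 ± 8.79% and 54.4 ± 6.59% of the pair.

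Of 15 genes that respond to liver X receptors 13 were tested and limma called 0, with 3 at an unadjusted p under 0.05 and a median of -0.10. The authors' deposited table called none higher and 1 lower, Mlxipl, which encodes the carbohydrate-sensing factor ChREBP (8.25 ± 1.82 and 5.06 ± 0.704 FPKM). The genes named here by their values pointed both ways. Lpcat3, which remodels membrane phospholipids, was higher in every knockout library, at 4.23 ± 0.255 and 6.43 ± 0.702 FPKM. Pltp, the phospholipid transfer protein, was lower in every one, at 4.91 ± 1.34 and 3.16 ± 0.367 FPKM. Their adjusted p by limma were 0.0696 and 0.189.

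Vdr was at the floor of detection. It was listed at 0.0384, 0.0923 and 0.0752 FPKM in wild type and at 0.0581, 0.0922 and 0.0569 FPKM in the knockout, under the 1 FPKM needed for the test. Corrected for relative depth these values are 1, 2 and 2 times, and 1, 2 and 1 times, the smallest of them, so each may rest on as few as 1 or 2 fragments. No difference was detectable at this depth, and no fold is given. Of 11 other genes of vitamin D metabolism and response 2 reached the filter, Cyp27a1 and Spp1, and limma called 0. A further 5 were listed at 0 in every library, among them Cyp24a1, the most responsive target, and Cyp27b1, which makes the active hormone. Neither of the 2 tested genes had an unadjusted p under 0.05 by limma, and the authors' deposited table called none.

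Nrip1 lay in a narrow band in the knockout. It was at 15.2, 12.3 and 10.9 FPKM in wild type and at 11.4, 11.9 and 11.5 FPKM in the knockout. The difference was -0.11 ± 0.13 (limma, adjusted p = 0.694), with a 95% interval from -25.3% to 14.5% on the FPKM + 1 scale. The coefficient of variation in the knockout, 2.37%, was under that of all but 4.85% of genes of like level, and Thrb, at 2.27%, was under all but 2.18%. Partners that NRIP1 recruits, such as the CtBP corepressors and class II deacetylases, held no called gene either: of 11 listed and tested 0 were called, 0 had an unadjusted p under 0.05 by limma, the authors' deposited table called none, and the median was 0.01. Among 16 genes of oxidative and lipid metabolism listed as restrained by NRIP1, 13 were tested and limma called 0 (3 at an unadjusted p under 0.05), with a median of 0.16. The authors' deposited table called 2 of them higher, Acsl1, which activates fatty acids, and Acaca, an enzyme of fatty acid synthesis, and 1 lower, Pdk4. Pdk4 counts in the glucocorticoid-responsive list too.

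Thyroid hormone supply and response showed single changes. In supply, 4 of 10 genes were tested and 1 rose, Slc7a5, a carrier of large amino acids that also moves thyroid hormone, which limma called (adjusted p = 0.0113). Its level went from 0.341 ± 0.0591 to 2.95 ± 0.729 FPKM, and the call was lost without wild-type replicate 2 (limma, adjusted p = 0.0640). Slc7a5 reached the filter mean of 1 FPKM only through the knockout libraries, where it is high. Slc16a10, another transporter, had means of 14.7 ± 1.03 and 16.5 ± 1.43 FPKM with overlapping groups. The deiodinase genes that activate and inactivate the hormone were low: Dio2 was between 0.421 and 1.23 FPKM, Dio3 at most 0.192 FPKM and Dio1 was listed at 0. Of 13 responsive genes 10 were tested and 1 rose, Me1, the cytosolic malic enzyme, from 47.9 ± 3.06 to 71.8 ± 4.75 FPKM, a difference of 0.57 (limma, adjusted p = 0.0272), a call that was lost when any 1 library was left out. The median over the 10 was 0.14. Thrsp, a classical target in fat synthesis, was at 10.2, 8.58 and 8.69 FPKM and at 13.1, 23.6 and 25.2 FPKM, and missed the threshold (limma, adjusted p = 0.0582). The authors' deposited table called Me1, Thrsp and Gpd2 higher, and 2 genes lower, among them Ucp3, an uncoupling protein of muscle whose groups overlapped (difference of -0.57, limma, adjusted p = 0.351). The retinoid list had 7 of 16 genes tested, 0 called, 0 with an unadjusted p under 0.05 by limma, none called in the authors' deposited table, and a median of 0.13.

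**Figure D4:**
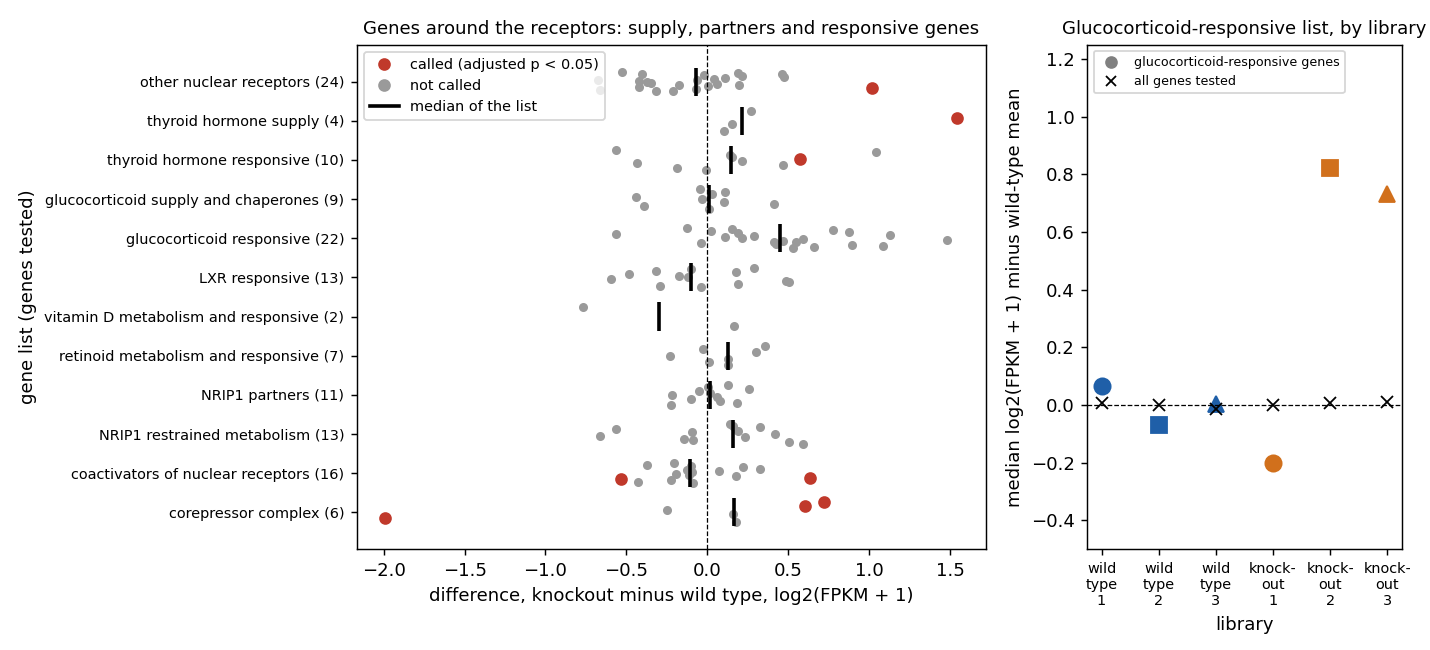
Left, the difference between knockout and wild type, log2(FPKM + 1), for each tested gene of 12 lists around the receptors, called genes in red and list medians as bars; right, the median of the 22 glucocorticoid-responsive genes in each library relative to the wild-type mean of each gene, with all genes tested as crosses. Knockout replicates 2 and 3 lie at 0.82 and 0.73 and knockout replicate 1 at -0.20, under the wild-type libraries.

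Single genes changed among the proteins that receptors exchange. Beside Hdac3, 2 of the 6 genes of the corepressor complex rose, Tbl1xr1 (difference of 0.72, limma, adjusted p = 0.0263) and Tbl1x (0.60, adjusted p = 0.0327), which encode the exchange factors that link corepressors to their removal. Ncor1 had means of 22.5 ± 1.14 and 25.3 ± 2.08 FPKM with overlapping groups. Of 17 coactivator genes 16 were tested, 1 rose and 1 fell. Kat2b, the acetyltransferase PCAF, went from 46.0 ± 5.20 to 71.7 ± 3.14 FPKM (limma, adjusted p = 0.0264). Ep300, which encodes p300, went from 6.75 ± 0.511 to 4.34 ± 0.142 FPKM (limma, adjusted p = 0.0443). The calls of Tbl1xr1, Tbl1x and Ep300 were lost when any 1 library was left out, and that of Kat2b held only without wild-type replicate 1. The SRC genes Ncoa1, Ncoa2 and Ncoa3 had differences of -0.11, -0.19 and -0.09 and were not called.

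By level, the genes followed the order Nr3c1, Rxra, Rxrg, Thra, Nrip1, Rxrb, Nr1h2, Thrb and Vdr in wild type. In wild type the ranges of neighbours overlapped for Nr3c1 and Rxra, Rxra and Rxrg, Rxrb and Nr1h2, and Nr1h2 and Thrb. They were apart for the other neighbours, for Nrip1 and Rxrb only by 10.8885 against 10.8836 FPKM. In the knockout the ranges of Thra and Nrip1 and of Nrip1 and Rxrb overlapped. Those of Rxra and Rxrg and of Rxrb and Nr1h2 did not. Rxrg was above Thra, and Thra above Nrip1, in all 6 libraries. Nr3c1 exceeded Rxra in 4 of 6 libraries. In the knockout Thrb, at 7.84 FPKM, stood above Nr1h2, at 6.75 FPKM, with overlapping ranges.

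Among the 49 nuclear receptor genes of the mouse the receptors studied here were prominent. Of these, 31 reached the filter, 8 were listed at 0 in every library, and the 8 receptors made up 32.2% of the family's summed FPKM in wild type and 33.2% in the knockout. By wild-type mean Nr3c1 ranked 3, Rxra 4, Rxrg 6 and Thra 9. The highest of the family was Nr1d2, the gene of REV-ERB beta, at 64.4 ± 5.91 FPKM. Of the 24 other receptors tested 1 rose, Esrrg, an estrogen-related receptor of oxidative muscle, with a difference of 1.01 (limma, adjusted p = 0.0182), and 0 fell by limma. The call of Esrrg was lost without wild-type replicate 2, knockout replicate 1 or knockout replicate 3, at adjusted p of 0.0906, 0.067 and 0.0709 (limma). Their median was -0.07. Over all 31 tested, 7 had every knockout library under every wild-type library, among them Thra and Nr3c2, and 2 had every one above, Thrb and Esrrg, against 11.9% and 14.2% of all genes tested. For Thra and Thrb, the size of the difference ranked 8 and 11 of the 31. The authors' deposited table called Esrrg higher as well, and it called 1 of the other receptors lower. Of all genes with a deposited test, 5.9% were called higher and 4.94% lower.

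No receptor was called, so the genes most like the 2 with the lowest p, Thrb and Thra, were sought over the 6 libraries by the root mean square difference of log2(FPKM + 1) after each gene's own mean was taken off. For Thra the nearest of 10500 genes were 0610011F06Rik (0.0228), Fkbp4 (0.0345), a co-chaperone of steroid receptors, and Kri1 (0.0537), against a deviation of Thra itself of 0.252. For Thrb they were Nbr1 (0.0327), an autophagy receptor, Polr1a (0.0344), the large subunit of RNA polymerase I, and Smc5 (0.0414), against 0.224. With 6 libraries and so many genes close matches are common, and 60 genes lay within 0.1 of Thra and 222 of Thrb.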

How the data were processed

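The 6 RNA-seq libraries of the series were used, and its other 8 samples (ChIP-seq, inputs, GRO-seq) were not. Per the submitters' processing notes, the authors made the deposited FPKM with TopHat2 and Cuffdiff on mm9. Their versions, the annotation and strandedness: not given in the sources used here, for any library. The p-value and q-value per gene are the authors' deposited ones, and 9204 genes with a deposited p under 1 were taken as tested there. The HDAC3 peak lists carry mm9 positions and were not used, since no mm9 annotation was at hand.

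Differences were fitted with limma 3.58.1 in R 4.3.3, on log2(FPKM + 1) with the trend option, for genes with a mean of at least 1 FPKM (two-sided, Benjamini-Hochberg). The pseudocount understates changes of low genes. Relative depth came from genes under 0.3 FPKM. FPKM are not counts, so no counting intervals are given. Exact permutation of 3 against 3 libraries cannot go below p = 0.1 and was not used. Gene lists get counts and medians only. Named are the 9 genes, Hdac3, Nr1d1, and at most 4 called genes per list; the authors' deposited table and values already seen chose the rest. The genes and lists were chosen with earlier results of these data known. Some genes counted in the lists are not reported here by name. Promoter windows are RefSeq's. Alternatives were 2 other pseudocounts, 2 other filters, 2 scalings, no trend, the deposited q-value, the replicate number as a block, and each library left out.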

Additional observations from a re-analysis of the deposited data

How the results depend on the processing

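The 8 genes tested stayed uncalled under all 15 alternatives, and Thra, Thrb, Rxrg and Nr3c1 kept their direction in all of them. For Thra and Thrb, whose groups did not overlap, most of these alternatives could not turn the sign. Leaving out each library in turn gave differences from -0.0294 to 0.24 for Rxra, -0.0024 to 0.36 for Rxrb, -0.20 to 0.45 for Nr1h2, -0.21 to 0.0082 for Nrip1 and -0.35 to 0.0125 for Nr1h3, so these signs rest on single libraries. The sign turned without wild-type replicate 1 for Rxra, Rxrb, Nr1h2 and Nrip1, without knockout replicate 2 for Rxra and Nr1h2, without wild-type replicate 2 for Nr1h2 and without wild-type replicate 3 for Nr1h3. By the means of the authors' deposited table Nr1h2 was at -0.0817. The ratio of Thra to Nr1d1, wild type over knockout, ranged from 0.924 to 1.076. Over all genes limma called 242 higher and 141 lower. These counts were 13 to 133 and 6 to 75 with a library left out, 152 higher with no filter on low values, and 543 and 455 by the deposited q-value. Over the listed genes 6 rose and 2 fell, against 0 to 4 and 1 with a library left out, 20 and 8 by the deposited q-value, and 1 lower with no filter.

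Whether the replicate numbers pair the samples is not stated in the labels. Same-numbered libraries had correlations of their deviations of 0.037, 0.0524 and 0.0467, and the other pairs ran from -0.0864 to 0.0316. The same-numbered pairs were thus the highest, and these values do not settle whether the samples are paired. With the replicate number as a block, limma called 23 genes higher and 13 lower over all genes, 1 and 1 over the listed genes, and none of the 8; the adjusted p was 0.155 for Thra and 0.205 for Thrb. The calls of Esrrg, Slc7a5, Me1, Ep300, Kat2b, Tbl1x and Tbl1xr1 were lost under that block and without wild-type replicate 2. Leaving out any single library ended the calls of Me1, Ep300, Tbl1x and Tbl1xr1. Scaling each library to a common sum also ended those of Me1 (adjusted p 0.056) and Tbl1x (0.0557), and testing with no filter those of Ep300 (0.0785) and Tbl1x (0.0549). That of Kat2b held only without wild-type replicate 1, and that of Esrrg was lost also without knockout replicate 1 or 3. The cause was not tested. The planned use of HDAC3 peaks was not run. Precision limits Nr1h2 and Vdr most.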

Other observations

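The libraries were not evenly spread over the 8 genes tested. Wild-type replicate 3 was the highest wild-type library for 5 of the 8 and wild-type replicate 1 the lowest for 5, and knockout replicate 1 was the lowest knockout library for 7 of the 8. Over all genes tested these shares were 35.3%, 35.1% and 36.3%. Knockout replicate 1 was highest for Nr3c1 alone.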
